A study of Mus musculus with 30 samples.

Results

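Cyp2f2, Sds, Hal, Gls2, Arg1, Cps1, Ass1, Asl, Otc and Hsd17b13 were followed in mouse liver after a low dose of heavy ions. The 10 genes were taken by name as genes of periportal hepatocytes, with the 5 enzymes of the urea cycle among them, and their Ensembl identifiers were matched to symbols. All 10 were present among the 51826 gene identifiers of the count table, and all 10 passed the low-count filter that left 19685 genes for testing. The tissue was the left liver lobe, frozen after collection, of male mice whose strain is written as C57BL16 in the labels. The irradiated mice (Fe) were exposed to 56Fe ions (600 MeV/n, 0.2 Gy), and the controls were labelled Non-Irradiated Control. Livers were collected at 5 times, 30, 60, 120, 270 and 360 days after irradiation, labelled months 1, 2, 4, 9 and 12. Each of the 10 groups of 1 arm and 1 time held 3 samples labelled as biological replicates, which gave 30 libraries. Whether each replicate was a separate mouse, and how old the mice were, is not given in the sources used here, so the p-values measure the spread between these samples.

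The liver lobule is arranged along the flow of blood, from the portal vein to the central vein. Hepatocytes near the portal vein take up oxygen-rich blood carrying amino acids from the gut and are known for amino acid breakdown, glucose production and the urea cycle, while hepatocytes around the central vein are known for glutamine synthesis and drug metabolism. The urea cycle turns toxic ammonia into urea: Cps1 makes carbamoyl phosphate in the mitochondrion, Otc joins it to ornithine to give citrulline, Ass1 and Asl turn citrulline into arginine in the cytosol, and Arg1 splits arginine into urea and ornithine. Gls2 (liver glutaminase), Hal (histidine ammonia lyase) and Sds (serine dehydratase) release ammonia from glutamine, histidine and serine. Cyp2f2 is a cytochrome P450 used as a periportal marker, and Hsd17b13 is a lipid droplet enzyme of hepatocytes.

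No member differed between Fe and control livers at any of the 5 times after adjustment over all genes tested, by edgeR's quasi-likelihood test with Benjamini-Hochberg adjustment at 0.05. At months 1, 2 and 4 most members were nevertheless measured lower in Fe livers, with median log2 fold changes of -0.37, -0.38 and -0.24. At months 9 and 12 the members' medians were 0.13 and 0.03, and the month 12 median was -0.11 without Fe replicate 1. Over time, 7 of the 10 members passed the test in each arm, near the 59% of all genes tested in Fe livers and 58.3% in control livers. Gls2 was higher in every library of months 4, 9 and 12 than in every library of months 1 and 2. The share of all genes with such a separation was not counted. The difference of Gls2 in time went along with a change in library composition and cannot be told apart from it.

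The libraries differed in composition with the time of collection. Total counts ran from 7995248 to 20215995 per library. The long non-coding transcript Gm26917 held 3.04% to 7.57% of the counts in months 1 and 2 and 0.452% to 2.04% in months 4, 9 and 12, and the nuclear transcript Malat1 held 0.470% to 1.13% and 0.175% to 0.427% in the same libraries. The 10 members together held 0.802% to 1.29% of the counts in months 1 and 2 and 0.936% to 1.61% later. Albumin (Alb), the defining hepatocyte product, ran from 15771 to 75663 CPM (read counts scaled to library size with TMM factors), with the lowest value in Fe replicate 3 of month 1. In such bulk tissue, fewer cells of a type and less RNA per cell cannot be told apart.

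Promoter sequences are shown for Otc and Hsd17b13, the members with the smallest p-values at a single time that the RefSeq promoter table holds, and for Hal, whose level differed least between arms in the mean over months among the amino acid enzymes. The table (GRCm38.p6) held 5 of the 10 members, Cyp2f2, Hal, Ass1, Otc and Hsd17b13. The 250 bases before each RefSeq transcript start are written 5′ to 3′ on the gene's strand, at chrX:10252055-10252304 (+ strand) for Otc, chr5:103977389-103977638 (- strand) for Hsd17b13 and chr10:93488518-93488767 (+ strand) for Hal. Capitals mark matches to TTNNGNAA, the letters of the C/EBP motif, a factor family of hepatocytes.
Otc: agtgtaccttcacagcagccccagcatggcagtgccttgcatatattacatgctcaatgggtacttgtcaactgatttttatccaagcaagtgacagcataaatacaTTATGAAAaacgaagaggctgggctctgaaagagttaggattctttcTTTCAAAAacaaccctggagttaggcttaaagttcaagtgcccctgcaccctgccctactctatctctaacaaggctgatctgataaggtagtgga
Hsd17b13: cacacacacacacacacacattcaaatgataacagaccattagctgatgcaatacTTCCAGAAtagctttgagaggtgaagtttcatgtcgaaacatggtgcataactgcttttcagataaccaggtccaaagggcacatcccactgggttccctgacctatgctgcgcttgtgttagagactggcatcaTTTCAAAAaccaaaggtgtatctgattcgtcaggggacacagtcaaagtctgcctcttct
Hal: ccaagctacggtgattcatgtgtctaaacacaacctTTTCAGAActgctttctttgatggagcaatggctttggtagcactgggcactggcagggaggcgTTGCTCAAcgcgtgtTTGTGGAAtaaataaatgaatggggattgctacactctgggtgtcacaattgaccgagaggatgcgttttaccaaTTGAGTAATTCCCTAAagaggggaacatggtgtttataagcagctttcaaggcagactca

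Hal held 5 matches to these letters, between -214 and -45 from the start, and Otc and Hsd17b13 held 2 each, with 1 of the 2 spelled TTTCAAAA in both genes. The motif was searched on both strands and occurred in 3 of the 5 member promoters and in 36.9% of the 27025 promoters of that length in the table. Of the other motifs searched on both strands, the E-box CACGTG occurred in Ass1 at -36 to -31 and in 6.05% of all promoters. The cyclic AMP response element TGACGTCA (1.62% of all promoters), the glucocorticoid receptor letters TGTTCT (16.2%) and the HNF4 letters CAAAGTCCA (0.381%) were not found in these 5 windows. A match describes the letters only.

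Per length, the members spanned a wide range of levels. Cps1 had the highest median over the 30 livers, 1179 CPM per kb of exon, followed by Ass1 with 684 and Arg1 with 595 CPM per kb. Cyp2f2 had a median of 260 CPM per kb, Otc 128, Hsd17b13 113 and Asl 100 CPM per kb. Gls2 (96.4 CPM per kb), Hal (90.6) and Sds (50.2) were lowest. The ranges of neighbours in this order overlapped over the libraries, as the plot of levels per length shows. Sds varied most, with 4.12-fold between its lowest and highest library, and Hal least, with 2.32-fold.

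**Figure D1:**
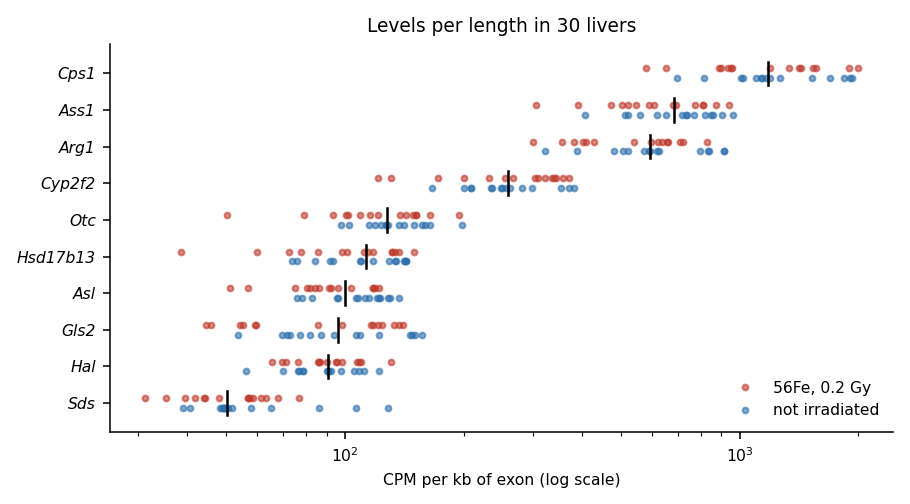
Level of each member in CPM per kb of exon (log scale) in the 15 Fe livers and the 15 control livers, 1 point per library, with a black bar at the median of all 30. Cps1, Ass1 and Arg1 lie above the other 7 genes in median, and the points of the 2 arms overlap for every gene.

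Among the urea cycle enzymes, Cps1 (chromosome 1, 67123026 to 67231259, GRCm38) averaged 4042 ± 1103, 5141 ± 187, 8391 ± 388, 9803 ± 1700 and 6342 ± 1244 CPM in Fe livers at months 1, 2, 4, 9 and 12, against 5277 ± 1270, 6486 ± 473, 10502 ± 259, 7465 ± 2592 and 6231 ± 557 CPM in control livers (SD, n = 3 each). The arms did not overlap at months 2 and 4. At month 2 the 3 Fe livers had 5303, 5184 and 4936 CPM of Cps1, against 7015, 6102 and 6341 CPM in control livers, a log2 fold change of -0.34 (95% interval -0.80 to 0.13, adjusted p = 0.403, edgeR). At month 4 the values of Cps1 were 7954, 8525 and 8696 CPM in Fe livers, against 10557, 10221 and 10729 CPM in control livers (log2 fold change -0.32, adjusted p = 0.465). All 3 Fe livers lay below the lowest control liver at both times. At month 9 control replicate 2, with 4520 CPM, stood apart from the other two control livers with 9397 and 8479 CPM.

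Otc (X chromosome, 10252305 to 10321024) came nearest to the threshold at a single time. At month 1 it had 334, 427 and 214 CPM in Fe livers, against 488, 598 and 415 CPM in control livers. Fe replicate 2 lay just above control replicate 3, so the groups overlapped by that pair. The log2 fold change was -0.62 ± 0.19 (SE), with a 95% interval of -1.01 to -0.24 and an adjusted p of 0.0533 by edgeR's quasi-likelihood test. In later Fe livers Otc averaged 451 ± 49.2, 620 ± 29.6, 723 ± 93.8 and 517 ± 86.9 CPM at months 2, 4, 9 and 12, against 542 ± 37.3, 740 ± 88.7, 610 ± 74.6 and 507 ± 62.1 CPM in control livers (SD, n = 3 each). Its log2 fold changes at months 2, 4, 9 and 12 were -0.26, -0.26, 0.25 and 0.03, and whether they differed between months was not resolved (adjusted p = 0.132, edgeR F-test).

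Ass1 (chromosome 2, 31470207 to 31520672) and Asl (chromosome 5, 130011258 to 130029247) act one after the other. Asl had 275, 394 and 248 CPM in Fe livers at month 1, against 365, 524 and 376 CPM in control livers, and 388, 415 and 363 CPM in Fe livers at month 2, against 466, 622 and 515 CPM in control livers. Only at month 2 did all 3 Fe livers lie below all 3 controls. The log2 fold change of Asl was -0.46 at each of these times (adjusted p = 0.168 at month 1 and 0.137 at month 2, edgeR). In the mean over the 5 months Asl had the smallest adjusted p of the members, 0.0547, with a log2 fold change of -0.27 (95% interval -0.43 to -0.10). Ass1 averaged 967 ± 241, 1383 ± 106, 1907 ± 225, 2026 ± 219 and 1368 ± 252 CPM in Fe livers at months 1, 2, 4, 9 and 12, against 1235 ± 254, 1848 ± 173, 2157 ± 174, 1697 ± 408 and 1594 ± 253 CPM in control livers (SD, n = 3 each). The arms of Ass1 were apart at month 2 only, with a log2 fold change of -0.42 (adjusted p = 0.210).

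Arg1 (chromosome 10, 24915221 to 24927484), the last enzyme of the cycle, did not overlap between arms at 2 times. It had 789, 910 and 847 CPM in Fe livers at month 2, against 1130, 1314 and 1161 CPM in control livers. At month 4 it had 1420, 1574 and 1468 CPM in Fe livers, against 1857, 2040 and 2031 CPM in control livers. The log2 fold changes of Arg1 were -0.50 (95% interval -0.85 to -0.15, adjusted p = 0.0822) and -0.41 (-0.76 to -0.06, adjusted p = 0.178) by edgeR, and neither passed. At months 1, 9 and 12 the log2 fold changes of Arg1 were -0.08, -0.09 and 0.04, and the arms overlapped.

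Summed over Cps1, Otc, Ass1, Asl and Arg1, urea cycle transcripts came to 6478 ± 1588, 8212 ± 188, 12942 ± 761, 14629 ± 2019 and 10075 ± 1600 CPM in Fe livers at months 1, 2, 4, 9 and 12, against 8319 ± 1837, 10612 ± 291, 16002 ± 373, 11956 ± 3418 and 10195 ± 992 CPM in control livers (SD, n = 3 each). Both arms thus had their lowest mean at month 1, and the highest mean was at month 4 in controls and at month 9 in Fe livers. The Fe livers of months 4 and 9 overlapped, with 12065 to 13425 CPM and 12540 to 16569 CPM. In the controls of month 9, replicate 2 had 8085 CPM, against 14561 and 13221 CPM in the others. A shift in the time of the highest level was not shown. Cps1 made up most of the sum, from 55.9% in control replicate 2 of month 9 to 71.0% in Fe replicate 3 of month 9. No test was made of the sum.

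The ammonia-releasing enzymes differed from each other. Gls2 (chromosome 10, 128194457 to 128210004) had 155, 208 and 159 CPM in Fe livers at month 1, against 242, 268 and 187 CPM in control livers, and 188, 206 and 192 CPM in Fe livers at month 2, against 249, 283 and 252 CPM in control livers. The groups of month 2 were apart and those of month 1 overlapped. Its log2 fold change was -0.42 at each of these times (adjusted p = 0.149 and 0.119, edgeR). At months 4, 9 and 12 Gls2 averaged 454 ± 41.4, 444 ± 28.8 and 349 ± 54.7 CPM in Fe livers, against 483 ± 50.9, 483 ± 90.5 and 334 ± 34.7 CPM in control livers (SD, n = 3 each), and the arms overlapped.

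Hal (chromosome 10, 93488768 to 93519304) showed the smallest differences of these enzymes at months 2 and 4, with log2 fold changes of -0.14 and -0.05 (adjusted p = 0.700 and 0.915). At month 2 its 3 Fe livers, with 476, 477 and 423 CPM, all lay below the control livers, with 505, 513 and 500 CPM. At month 12 Hal had 548, 727 and 394 CPM in Fe livers, against 508, 388 and 434 CPM in control livers, a log2 fold change of 0.33 (95% interval -0.05 to 0.70, adjusted p = 0.431, edgeR).

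Sds (chromosome 5, 120476526 to 120483932) was the least abundant and most variable member. At month 2 it had 96.7, 81.5 and 74.5 CPM in Fe livers, against 69.0, 218 and 146 CPM in control livers, where control replicate 1 lay below all Fe livers. The log2 fold change at month 2 was -0.78 (95% interval -1.43 to -0.13, adjusted p = 0.145, edgeR), the largest in size of the members. At month 4 Sds had 53.0, 70.9 and 66.8 CPM in Fe livers, against 110, 98.3 and 85.8 CPM in control livers. At month 9 the order was the other way, with 107, 104 and 99.5 CPM in Fe livers, against 83.6, 65.9 and 83.7 CPM in control livers. The log2 fold changes of Sds were -0.63 at month 4 (adjusted p = 0.279) and 0.42 at month 9 (adjusted p = 0.565). Their difference, 1.04 ± 0.44 (SE), had an adjusted p of 0.201 by edgeR, in a contrast for which 4.08% of all genes tested passed. The end of Sds overlaps Plbd2 on the other strand, with up to 1209 counts in a library where Sds had at least 675, and the strand setting of the counting is not given in the sources used here.

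Cyp2f2 (chromosome 7, 27119909 to 27133660) did not separate the arms at any time. It averaged 464 ± 216, 690 ± 37.9, 607 ± 85.9, 593 ± 173 and 385 ± 141 CPM in Fe livers at months 1, 2, 4, 9 and 12, against 550 ± 65.5, 672 ± 125, 591 ± 136, 441 ± 91.3 and 417 ± 9.75 CPM in control livers (SD, n = 3 each). Its widest difference was a log2 fold change of 0.43 at month 9 (95% interval -0.14 to 0.99, adjusted p = 0.480, edgeR). Fe replicate 3 of month 1, at 245 CPM, was the lowest library.

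Hsd17b13 (chromosome 5, 103955440 to 103977410) was the single member whose arms were apart at month 1. It had 130, 156 and 83.0 CPM in Fe livers, against 198, 163 and 159 CPM in control livers, a log2 fold change of -0.50 (95% interval -0.84 to -0.15, adjusted p = 0.0938, edgeR). The arms were apart again at month 4, with 241, 255 and 247 CPM in Fe livers, against 308, 305 and 309 CPM in control livers (log2 fold change -0.31, adjusted p = 0.321). At months 2, 9 and 12 Hsd17b13 had log2 fold changes of -0.13, 0.01 and 0.05, with overlap at each.

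**Figure D2:**
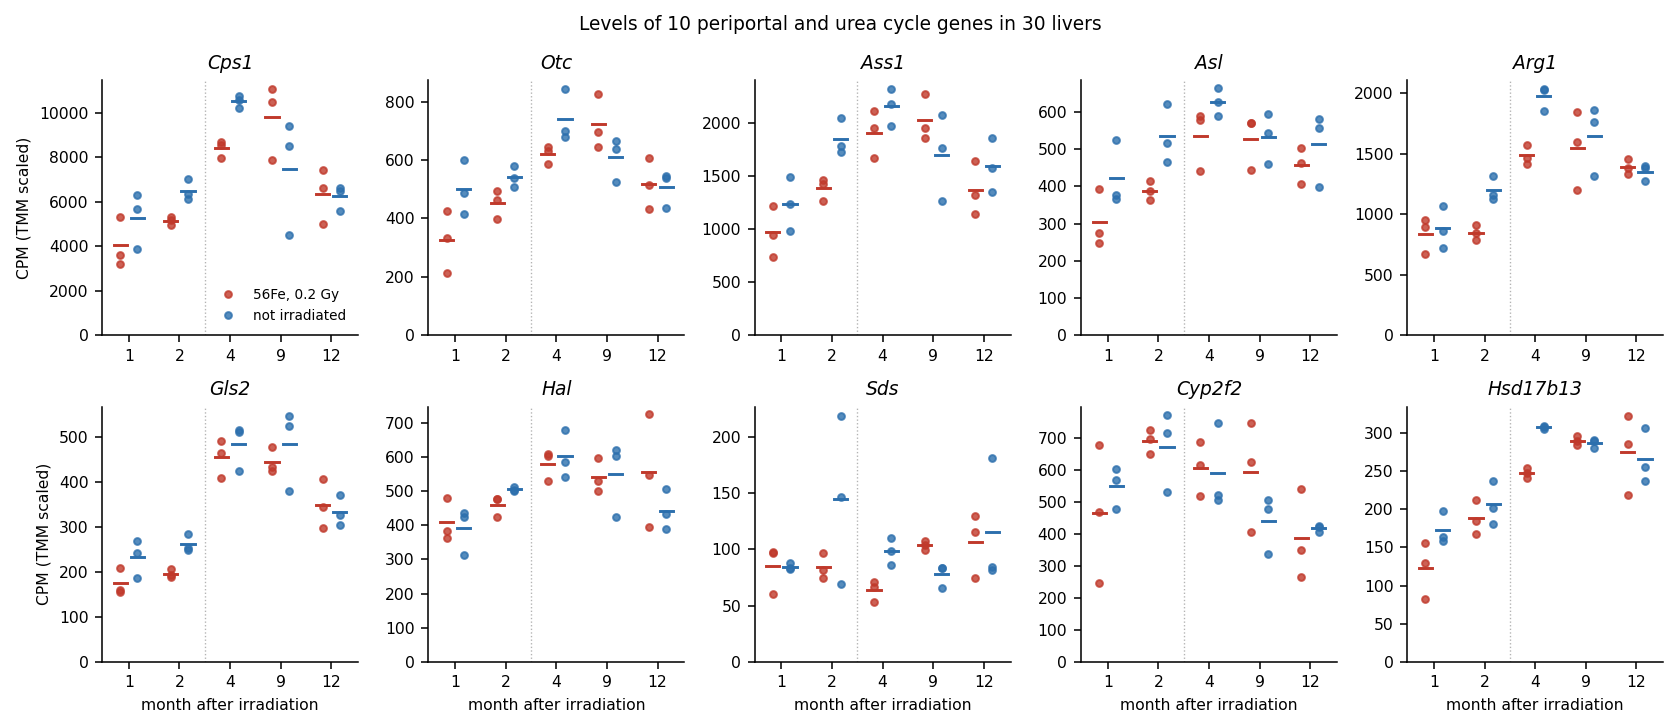
CPM of each member at months 1, 2, 4, 9 and 12, with Fe livers in red left of control livers in blue, 1 point per library and a bar at each mean of 3. The dotted line parts months 1 and 2 from months 4, 9 and 12, and every Gls2 point right of it lies above every Gls2 point left of it.

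Across the members, 0 of 10 passed at months 1, 2, 4, 9 and 12, where 4.6%, 4.37%, 3.6%, 1.66% and 0% of all genes tested passed. At an unadjusted p under 0.05 the counts were 4, 5, 1, 0 and 0 of 10, beside 16.9%, 21.6%, 19.1%, 16.1% and 13.5% of all genes, so that the last 3 counts lie below those shares. In the mean over the 5 months 0 of 10 passed, with 5.26% of all genes passing, and 6 of 10 had an unadjusted p under 0.05, beside 22.1% of all genes. DESeq2 called 1, 1, 0, 0 and 0 members at the 5 times and limma voom 3, 4, 0, 0 and 0, all of them lower in Fe livers. These tools also called more of all genes, 8.53%, 8.78%, 8.59%, 6.1% and 1.07% with DESeq2 and 10.4%, 19%, 10.2%, 4.52% and 0.00508% with limma voom. Without control replicate 3 of month 1, Gls2, Hsd17b13 and Otc passed at that time, 3 of 10, with 9.15% of all genes passing. The fold changes were negative for 8, 9, 9, 4 and 4 of 10 members, and the medians of all genes tested were -0.03, -0.02, 0.04, 0.004 and -0.02 on the log2 scale. With upper quartile factors the counts of negative values were 7, 9, 8, 5 and 4. At month 12 the count of negative values was 8 with no low-count filter, 9 with the Gm26917 covariate and 6 with limma voom. It was 8 without Fe replicate 1 of month 12 and 7 without control replicate 2. Leaving out 1 library, the members' median ran from -0.52 to -0.16 at month 1, -0.41 to -0.34 at month 2, -0.31 to -0.17 at month 4, 0.04 to 0.18 at month 9 and -0.11 to 0.07 at month 12. The month 1 median of -0.16 came without control replicate 2, and that of -0.52 without control replicate 3.

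All 3 Fe livers lay below all 3 controls for 1, 7, 5, 0 and 0 of 10 members at months 1, 2, 4, 9 and 12. The same held for 9.92%, 18.6%, 15.9%, 8.77% and 7.78% of all genes tested. All 3 Fe livers lay above all 3 controls for Sds at month 9 and for no other member or time, against 8.71%, 15.6%, 14.3%, 9.4% and 7.74% of all genes. With TMM factors the 7 members of month 2 were Cps1, Otc, Ass1, Asl, Arg1, Gls2 and Hal, so the whole urea cycle was included. Those of month 4 were Cps1, Otc, Arg1, Sds and Hsd17b13. The counts depended on the scaling. With upper quartile factors 5 members were lower without overlap at month 2 and 5 at month 4, and with RLE factors 7 and 6. At month 9, 2 members were higher without overlap with upper quartile factors and 1 with RLE factors. The members share libraries and their values move together, so they are not independent observations.

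**Figure D3:**
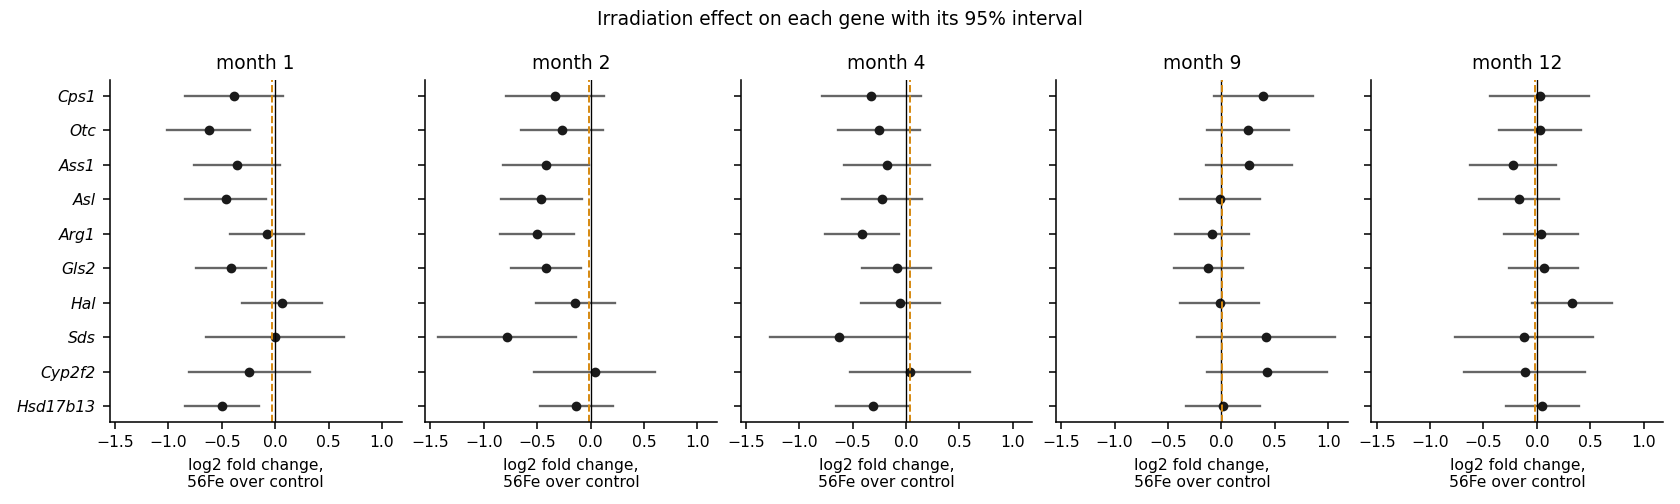
Log2 fold change of each member, Fe over control, at each month, with its 95% interval from the edgeR fit. The orange dashed line marks the median of all genes tested, and the points lie mostly left of it at months 1, 2 and 4 and on both sides of it at months 9 and 12.

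Composition and other markers also differed between the arms at the times with the lower values. At month 1 Gm26917 had 50079 to 59019 CPM in Fe livers, against 27122 to 45770 CPM in control livers, and at month 4 it had 9105 to 10382 CPM in Fe livers, against 5342 to 6071 CPM in control livers. At month 2 Gm26917 held 4.79% to 6.93% of the counts in Fe livers, against 3.32% to 4.76% in control livers. At month 12 Gm26917 had the opposite order, with 0.759% to 1.04% in Fe livers, against 1.33% to 2.04% in control livers. Its arms overlapped at month 9. Malat1 held 0.912% to 1.09% in Fe livers at month 2, against 0.470% to 0.592% in control livers. At month 1 Malat1 held 0.939% to 1.13%, against 0.546% to 0.904%, and at month 4 its arms overlapped. With the Gm26917 share as a covariate the members' median log2 fold changes were -0.19, -0.26, -0.05, 0.15 and -0.18 at months 1, 2, 4, 9 and 12, and 0 of 10 passed at each of them. With the covariate 0.589%, 0.066%, 0%, 1.74% and 0% of all genes passed, so few calls were left among all genes at 4 of the 5 times. The 18 clock genes summed to 569 to 614 CPM in Fe livers at month 1, against 1178 to 1212 CPM in control livers, with 3 higher and 8 lower after adjustment. Arntl, a core clock activator, had 25.5 to 38.4 CPM in Fe livers at that time, against 1.91 to 2.44 CPM in control livers. At month 2, where 4 clock genes were lower and none higher, their sum was 576 to 651 CPM in Fe livers, against 764 to 1006 CPM in control livers. The hour of collection is not given in the sources used here, and the part of the clock genes in the members' values was not tested.

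Of the cell type markers at month 2, the 7 erythroid markers summed to 71.2 to 82.5 CPM in Fe livers, against 103 to 139 CPM in control livers, and the 9 stellate cell markers to 318 to 344 CPM, against 362 to 398 CPM. The 8 Kupffer cell markers gave 175 to 214 CPM in Fe livers, against 233 to 464 CPM in control livers, the 8 sinusoidal endothelial markers 421 to 441 CPM, against 375 to 412 CPM, and the 9 cholangiocyte markers 43.9 to 120 CPM, against 45.4 to 69.6 CPM. The 10 lymphocyte markers summed to 7.84 to 10.1 CPM in Fe livers, against 5.98 to 6.90 CPM in control livers, and the 8 neutrophil markers to 1.29 to 2.68 CPM, against 2.44 to 39.2 CPM. At month 1 the lymphocyte markers summed to 6.84 to 9.49 CPM in Fe livers, against 9.998 to 13.7 CPM in control livers, the opposite order to month 2. At month 4 the erythroid markers summed to 204 to 262 CPM in Fe livers, against 319 to 435 CPM in control livers. The sums of the other marker lists overlapped between the arms at months 1 and 4. Of single markers at month 1, Sox9, a cholangiocyte transcription factor, rose to 7.83 ± 1.91 CPM in Fe livers, against 2.40 ± 0.951 CPM in control livers (SD, n = 3 each, adjusted p = 0.0406, edgeR). The 9 cholangiocyte markers together were not higher, with 52.5 ± 19.8 CPM in Fe livers at month 1, against 54.0 ± 13.9 CPM in control livers. No marker was at 0 in every library. The part of these cells in the members' values was not tested.

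The effect of irradiation on the members was not shown to differ between months: 0 of 10 passed the F-test, where 11% of all genes did, and 1 of 10, Otc, had an unadjusted p under 0.05, beside 29.5% of all genes. DESeq2 and limma voom also called 0 members in this test.

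Over the 5 months, 7 of 10 members passed in Fe livers, Gls2, Hsd17b13, Arg1, Otc, Cps1, Ass1 and Asl, with 59% of all genes passing. In control livers 7 of 10 passed as well, Arg1, Gls2, Hsd17b13, Cps1, Ass1, Hal and Otc, with 58.3% of all genes passing. The adjusted p of Gls2 was 6.33e-09 in Fe livers and 1.08e-06 in control livers (edgeR F-tests). Without control replicate 3 of month 1 the control count was 4, Arg1, Cps1, Gls2 and Hsd17b13. Sds and Cyp2f2 passed in neither arm. The members' shares lie near those of all genes in either arm.

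Among the members, Gls2 had the widest gap between the early and the later times. How many of all genes tested had such a gap was not counted, for Gls2 or for the counts below. Its level ran from 297 to 547 CPM in the 18 livers of months 4, 9 and 12, against 155 to 283 CPM in the 12 livers of months 1 and 2. The mean of the later times was 2.25-fold that of the early times in Fe livers and 1.76-fold in control livers. For Arg1 and for Hsd17b13, 16 of the 18 later livers lay above all 12 early livers, with ratios of 1.75 and 1.74 in Fe livers and 1.59 and 1.51 in control livers. The same count was 12 for Cps1 and Hal, 11 for Otc, 5 for Ass1, 2 for Asl and 0 for Cyp2f2 and Sds. Cyp2f2 had a ratio below 1 in both arms, 0.915 in Fe livers and 0.790 in control livers.

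With the Gm26917 share as a covariate, 0 of 10 members passed over the 5 months in either arm, where 0.31% of all genes passed in Fe livers and 9.47% in control livers. Month and Gm26917 share follow each other in these libraries, so a change with time and a change in composition cannot be told apart. Among months 4, 9 and 12 alone, 0 of 10 members passed in Fe livers and 2 of 10 in control livers, Gls2 (adjusted p = 0.0209) and Cps1 (adjusted p = 0.0398), while 2.93% and 20.2% of all genes passed. An unadjusted p under 0.05 in Fe livers was reached by 4 of 10 members and 19.0% of all genes. Both control calls were lost without control replicate 2 or 3 of month 12. Month 2 against month 1 called 0 of 10 members in Fe livers and in control livers, with 0.00508% and 9.8% of all genes passing. At an unadjusted p under 0.05 the month 2 comparison gave 4 members in Fe livers, Hsd17b13, Ass1, Otc and Cyp2f2, and 3 in control livers, Ass1, Arg1 and Sds, all higher at month 2. Among all genes 12.1% in Fe livers and 25.4% in control livers reached it, so the control count lies near that share.

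Within groups the members moved together, apart from Sds. The deviations from the group means of log2 CPM gave, as a description over 30 libraries that share their scaling, r of 0.92 between Gls2 and Ass1, 0.84 between Gls2 and Cps1 and 0.83 between Cps1 and Ass1. The mean r of a member with the other nine was 0.62 for Ass1, 0.61 for Gls2 and 0.56 for Cps1, but 0.24 for Hsd17b13 and -0.04 for Sds. Single livers stood out across the list. In Fe replicate 2 of month 1 all 10 members lay above the mean of their group, by a median of 0.38 on the log2 scale, where the 17 pericentral genes had a median of 0.10. In control replicate 3 of month 1 all 10 lay below it, with a median of -0.27, and the pericentral genes had nearly the same, -0.25. In control replicate 2 of month 1 the medians were 0.25 for the members and 0.29 for the pericentral genes. In control replicate 2 of month 9, 9 of 10 lay below it, with a median of -0.32, beside -0.05 for the pericentral genes.

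**Figure D4:**
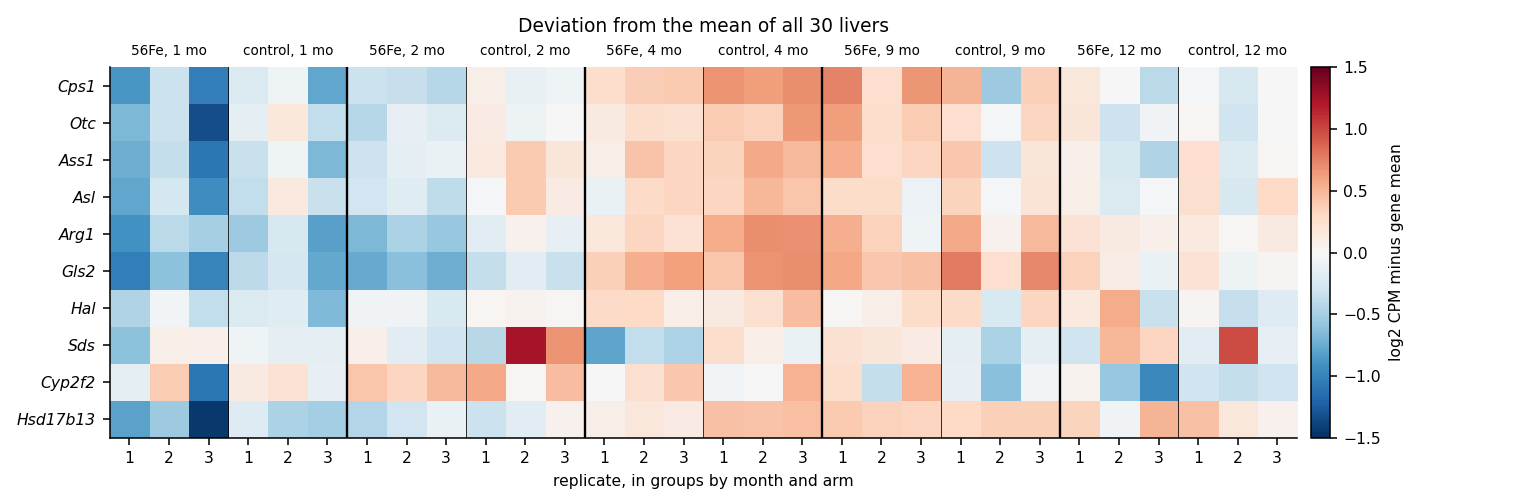
Log2 CPM of each member minus its mean over all 30 livers, 1 column per library, ordered by month with Fe livers left of control livers. The columns of months 1 and 2 are mostly blue (below the mean) and those of months 4 and 9 mostly red. Sds and Cyp2f2 break the pattern, and control replicate 2 of month 9 is bluer than its neighbours for Cps1, Ass1, Sds and Cyp2f2.

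For each member the 2 genes with the most similar pattern over the 30 libraries were looked up among 9946 genes with a mean of at least 5 CPM, by Pearson's r of log2 CPM, as a description. Gls2 was most like Ndrg2 (r = 0.98) and Gchfr (0.97). Otc was close to Mettl7a1 (0.95), and Hsd17b13 was most like Hsd11b1 (0.96) and Itm2b (0.95). Ass1 was most like 2 other members, Cps1 (0.91) and Asl (0.89), and Cps1 like Abcb11 (0.93), the bile salt export pump, and Gpld1 (0.92). Arg1 was most like Psmb6 and Pfdn5 (both 0.96), Asl like Selenbp1 and Ndufa10 (both 0.90), Hal like Mogs (0.90) and Dpp3 (0.85), Cyp2f2 like Ces3a (0.84) and Hsd17b2 (0.81), and Sds like Slc25a51 (0.83) and Klhl15 (0.78). All libraries share the difference between early and later times; within the 18 later libraries alone r for Hsd17b13 and Hsd11b1 was 0.67 and for Otc and Mettl7a1 0.86.

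Among 9 listed partners of the urea cycle, of which 8 were tested, 1 fell in Fe livers at month 2 and none passed at the other 4 times. Slc25a15, the mitochondrial carrier that exchanges ornithine and citrulline, had 188, 254 and 204 CPM in Fe livers at month 2, against 326, 326 and 311 CPM in control livers (log2 fold change -0.58, adjusted p = 0.0359, edgeR). All 3 Fe livers were below the controls, but the call was kept in 1 of the 6 fits that left out 1 of these libraries, with an adjusted p of up to 0.197. In the mean over the months Nags, which makes the activator that CPS1 needs, and Got1, the cytosolic aspartate aminotransferase, fell by 0.28 and 0.41 on the log2 scale (adjusted p = 0.0105 and 0.022). The list's median log2 fold changes were -0.13, -0.43, -0.10, -0.21 and -0.002 at months 1, 2, 4, 9 and 12.

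Of 10 listed partners in histidine and serine metabolism, 1 rose at month 1 and none passed at later times. It was Gldc, the glycine decarboxylase, with 133, 184 and 129 CPM in Fe livers, against 103, 93.4 and 51.7 CPM in control livers (log2 fold change 0.85, adjusted p = 0.00519, edgeR). Among 18 other amino acid catabolism genes, Tdo2 and Prodh, which open tryptophan and proline breakdown, fell at month 2, by 0.71 and 0.70 on the log2 scale (adjusted p = 0.0319 and 0.0378). Of 16 other periportal genes, Gldc, which is on that list too, rose at month 1 and Pck1, the gluconeogenic enzyme, fell at month 2, by 1.21 on the log2 scale (adjusted p = 0.0492). None of these lists had a gene that passed at months 4, 9 or 12. The 18 other amino acid catabolism genes summed to 8758 to 10258 CPM in Fe livers at month 2, against 12908 to 15477 CPM in control livers. At month 4 their sum was 15290 to 18096 CPM in Fe livers, against 20758 to 21383 CPM in control livers. It overlapped between the arms at months 1, 9 and 12. The sums of the other lists of this paragraph overlapped at months 2 and 4. No test was made of these sums. Gldc kept its call in all 6 fits that left out 1 library of the comparison, Prodh in 2 of 6, Tdo2 in 1 and Pck1 in 0.

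Genes of the other end of the lobule were measured beside them. Of 17 pericentral genes, 2 fell at month 1, none passed at month 2 and 1 rose at month 4. Their median log2 fold changes were -0.35, -0.26, 0.21, -0.27 and -0.18 at months 1, 2, 4, 9 and 12, beside -0.37, -0.38, -0.24, 0.13 and 0.03 for the 10 members. Values were negative for 13 of 17 pericentral genes at months 1 and 2, and for 3 of 17 at month 4. At month 1 the fallen genes were Slc1a2, a glutamate transporter, and Rgn, with log2 fold changes of -1.001 and -0.737, and at month 4 Lgr5, a Wnt receptor partner, was higher by 0.94. Glul, glutamine synthetase, had 466 to 679 CPM in Fe livers at month 2, against 679 to 754 CPM in control livers, and at month 4 1396 to 1636 CPM in Fe livers, against 1277 to 1398 CPM in control livers. Leaving out 1 library of the comparison, Slc1a2 kept its call in 5 of 6 fits, Rgn in 1 and Lgr5 in 0. No test of the difference between the lists was made.

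Among the listed regulators, Nr3c1, the glucocorticoid receptor, fell at month 1, to 90.9 ± 8.24 CPM in Fe livers against 125 ± 25.5 CPM in control livers (SD, n = 3 each, adjusted p = 0.0406), and none of that list passed at later times. Of 9 lipid droplet genes listed with Hsd17b13, Pnpla2, the main triglyceride lipase, fell at month 1 (adjusted p = 0.00114) and Plin5, a droplet coat protein, at month 2 (adjusted p = 0.032). Pnpla2 had 25.6, 26.3 and 26.1 CPM in Fe livers at month 1, against 54.4, 48.9 and 33.0 CPM in control livers. Leaving out 1 library, Pnpla2 kept its call in 6 of 6 fits at month 1, Nr3c1 in 1 and Plin5 in 0. With the Gm26917 share as a covariate, Gldc at month 1 still passed, and no other fall or rise named here for these lists in a single month or in the mean over months did. That fit called 116, 13, 0 and 39 of all genes at months 1, 2 and 4 and in the mean, and several of the fold changes stayed near their size, with 1.11 for Lgr5 at month 4, -0.97 for Pck1 and -0.55 for Tdo2 at month 2, and -0.35 for Got1 in the mean. The 12 acute phase genes held none that passed at any time, with median log2 fold changes of 1.34 at month 1 and -1.21 at month 2, and Saa1 reached 5364 CPM in Fe replicate 3 of month 1, the library with the lowest Otc, Cyp2f2 and Hsd17b13. The acute phase sum ran from 14718 to 49259 CPM in Fe livers at month 1, against 8069 to 17343 CPM in control livers. At month 2 the sum was lower in Fe livers, 12190 to 13926 CPM, against 16609 to 24595 CPM in control livers. At month 4 it was lower as well, 14179 to 15416 CPM in Fe livers, against 19191 to 26610 CPM in control livers. At month 12 it reached 59483 CPM in a Fe liver and 48380 CPM in a control liver. The part of the acute phase genes in the members' values was not tested.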

How the data were processed

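RNA-seq of 30 livers was analysed, 3 biological replicates in each of 10 groups. The authors deposited whole-number read counts per Ensembl gene. Per the series design text, frozen lobes were cut into cryotome slices, ribosomal RNA was depleted, TruSeq libraries were read as paired ends, and reads were aligned to GRCm38 with STAR 2.5.3a, whose GeneCounts mode counted them on the Gencode M14 annotation. The strand setting is not given in the sources used here, so genes overlapping on opposite strands may share reads. Symbols, coordinates and exon lengths came from Gencode M21, which matched 51633 of 51826 identifiers, and the 193 others held at most 0.0222% of a library's counts. Totals of 7995248 to 20215995 were taken as depth, below the read numbers in the series text.

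Testing used edgeR 4.0.16 (R 4.3.3) on genes kept by filterByExpr (at least 10 counts in enough libraries, 15 in all), with TMM factors and a robust quasi-likelihood fit of all 30 libraries with 1 coefficient per group. Contrasts gave the irradiation effect at each month and its mean, and F-tests gave its difference between months and the change over time in each arm. The contrast of month 9 against month 4 was added after the values of Sds were seen. P-values were adjusted over the 19685 genes tested by Benjamini-Hochberg at 0.05. CPM are scaled by TMM factors and divided by exon length only where said. Intervals are 95% intervals of the fit.

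The members, the 16 other gene lists and the tests were chosen with earlier results of these data known. All members are named. From the other lists, up to 3 genes with the smallest adjusted p are named per comparison, and Gm26917, Malat1, Arntl, Dbp, Glul and Cyp2e1 could be named in any. Alb and Saa1 were not covered by it and were added with their values known. For Arg2, Elane and Ly6g the counts were too low for testing, and some listed genes are not reported here.

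Alternatives were scaling by RLE or by upper quartile, testing without a low-count filter or with one of 1 CPM in 3 libraries, DESeq2 1.42.0, voom of limma 3.58.1 with sample weights, a replicate block, the Gm26917 share as a covariate, fits of only the libraries compared, and dropping each library once. Replicate numbers were checked for pairing across arms by correlating deviations from group means. Same-numbered libraries had r of -0.38 to 0.35, above 0.1 in 6 of 15 pairs. At month 12 all 3 pairs were above 0.1, though no label gives pairs. The main fit was unpaired at every month, and the block over all months was an alternative fit only. Fe replicate 3 of month 12 had a higher r with another control number (0.23) than with its own (0.19), so pairing is not settled. The block changed no member's call at that time, where 0% of all genes passed in the main fit. No 2 libraries of a group were alike within sampling noise (30 pairs, lowest chi-square per gene 10.16). On simulated data for month 1, run on 19099 genes, the fit recovered 50% of 2-fold and 95% of 4-fold changes, with 6 false calls among 151. The changed genes were drawn from those with a mean of at least 1 CPM in control livers of month 1. Python 3.11.15 with pandas 2.3.3 and matplotlib 3.10.9 made the tables and figures.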

Additional observations from a re-analysis of the deposited data

Results flagged for a closer look

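Sds was apart between the arms in opposite directions at 2 times. Its log2 fold change, Fe over control, was -0.63 at month 4, where all 3 Fe livers were lower, and 0.42 at month 9, where all 3 were higher. The difference between these 2 effects did not pass after adjustment (1.04 ± 0.44 SE, adjusted p = 0.201, edgeR).

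Values are given for 7 listed genes outside the members whose irradiation effect differed between months by the F-test of edgeR. Slc25a15, the ornithine and citrulline carrier, had log2 fold changes of 0.16, -0.58, -0.36, 0.11 and 0.58 at months 1, 2, 4, 9 and 12 (adjusted p = 0.00783). Gldc had 0.85, -0.27, 0.03, 0.09 and 0.22 (adjusted p = 0.0315). Tdo2 had -0.30, -0.71, -0.46, -0.21 and 0.37 (adjusted p = 0.0471). The pericentral Slc1a2 had -1.001, -0.38, 0.36, 0.12 and -0.08 (adjusted p = 0.0146). The regulator Nr3c1 had -0.46, -0.09, 0.09, 0.18 and 0.31 (adjusted p = 0.037). The lipid droplet genes Pnpla2 and Cideb had -0.81, -0.39, 0.35, -0.04 and -0.70 (adjusted p = 0.00383) and 0.10, 0.004, 0.62, -0.23 and -0.91 (adjusted p = 0.0060). With the Gm26917 share as a covariate the adjusted p of Slc25a15, Tdo2 and Nr3c1 was 0.056, 0.444 and 0.205, and Gldc, Slc1a2, Pnpla2 and Cideb passed, with 3.02% of all genes passing. Leaving out each of the 30 libraries once, Tdo2 passed in 9 and Nr3c1 in 3 of 30 fits, Gldc in 25, Slc1a2 in 29 and Slc25a15, Pnpla2 and Cideb in all.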

How the results depend on the processing

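Of 125 counts recomputed under settings other than leaving out a library, 99 stayed within 1.5 times the value in the report. At month 1 the count of members called in Fe against control livers, 0 in the report, was 1 with DESeq2 (Otc) and with no low-count filter (Otc), 3 with limma voom (Asl, Gls2, Otc) and 4 with the replicate block (Asl, Gls2, Hsd17b13, Otc). At month 2 it was 1 with DESeq2 (Arg1), 4 with limma voom (Arg1, Asl, Gls2, Sds), 3 with the replicate block (Arg1, Asl, Gls2) and 4 in the compared libraries alone (Arg1, Asl, Ass1, Gls2), and at month 4 it was 2 in the compared libraries alone (Arg1, Sds). In the mean over months it was 2 with DESeq2 (Arg1, Asl), 4 with limma voom (Arg1, Asl, Ass1, Gls2), 1 with no filter (Asl) and 2 with the replicate block (Asl, Gls2). All these members were lower in Fe livers. Of all genes, DESeq2 called 8.53% and 8.78% and limma voom 10.4% and 19% at months 1 and 2. The block called 6.22% and 6.74% at these times, and no filter 1.33% at month 1. The compared libraries alone called 18.5% at month 2 and 12% at month 4. In the mean the shares were 9.91% with DESeq2, 13.9% with limma voom, 1.5% with no filter and 8.16% with the block. The count for a difference between months was 1 with no filter (Otc) and 2 with the block (Cps1, Otc). Replicate numbers mark no shared animal or batch in the labels, the own number correlated best in 9 of 15 pairs, and the cause of the added calls under the block was not tested.

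Over the 5 months the count of 7 in each arm was 0 with the Gm26917 covariate, and over months 4, 9 and 12 the 2 control calls were 0 with it, 4 with DESeq2 and 1 with no filter or in the compared libraries alone. Month 2 against month 1, with 0 in the report, gave 1 in Fe livers with DESeq2 and limma voom (Hsd17b13) and 1 in control livers with DESeq2, no filter and the covariate (Ass1). In that order the shares of all genes were 1.55% and 2.04% in Fe livers, and 14.5%, 2.92% and 12.7% in control livers.

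Leaving out 1 library gave 0 to 3 calls at month 1 and 0 to 1 at month 2. The 3 (Gls2, Hsd17b13, Otc) came without control replicate 3 and 1 (Otc) without Fe replicate 2 of month 1, and the 1 of month 2 (Sds) without control replicate 1. In that order these fits called 9.15%, 2.83% and 1.35% of all genes. The mean over months gave 0 to 3, with 3 (Arg1, Asl, Gls2) without control replicate 3 of month 1 and 1 (Asl) without control replicate 1 or Fe replicate 2 of month 1, control replicate 2 of month 9, or control replicate 2 or Fe replicate 1 of month 12. Of all genes, 11.5% passed in the fit with 3 members and 3.09% to 6.67% in the fits with 1. The difference between months gave 0 to 1 (Sds, without control replicate 1 of month 2). Over the 5 months control livers gave 4 to 8, with 4 without control replicate 3 of month 1. Over months 4, 9 and 12 they gave 0 to 3, with 1 without any single library of month 4 or replicate 1 of month 12. Month 2 against month 1 gave 0 to 2 in control livers, with 2 (Arg1, Ass1) without replicate 2 of month 1 and 1 (Sds) without replicate 1 of month 2. Those fits called 7.66% and 4.07% of all genes.

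The log2 fold changes whose sign turned were not called in either fit. They were up to 0.12 in size in the report, apart from Ass1 at month 4 (-0.18), Hsd17b13 at month 2 (-0.13) and Cyp2f2 at month 1 (-0.24, turned without Fe replicate 3). With RLE factors Asl and Hal at month 9 were 0.019 and 0.014, with DESeq2 0.019 and 0.014 (and Cyp2f2 at month 4 -1.2e-05), and with the stricter filter 0.0058 and 0.00085. Upper quartile factors gave 0.016 for Arg1 at month 1, 0.028 for Hal at month 4 and -0.012 for Hsd17b13 at month 9. With no filter the values were 0.025 for Asl and 0.015 for Hal at month 9, and -0.0091 for Arg1, -0.022 for Cps1, -0.0074 for Hsd17b13 and -0.025 for Otc at month 12. The block gave -0.0041 for Cyp2f2 in the mean and -0.032 for Sds at month 1, and the compared libraries alone 0.0041 for Hal at month 4. With limma voom the values were -0.097 for Cps1, -0.022 for Gls2, -0.016 for Otc and 0.18 for Sds at month 12, -0.020 for Hal and -0.11 for Sds at month 1, and -0.025 for Hal in the mean. The Gm26917 covariate gave 0.11 for Arg1 at month 1, 0.012 for Hsd17b13 at month 2, 0.10 for Ass1, 0.16 for Gls2 and 0.079 for Hal at month 4, and -0.17 for Arg1, -0.11 for Cps1, -0.19 for Gls2, -0.23 for Hsd17b13 and -0.18 for Otc at month 12.

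Without single libraries the range at month 1 was -0.53 to 0.082 for Cyp2f2, -0.084 to 0.24 for Sds, -0.077 to 0.21 for Hal and -0.21 to 0.14 for Arg1. For Cyp2f2 it was -0.11 to 0.15 at month 2 and -0.089 to 0.21 at month 4, and for Hal -0.14 to 0.012 at month 4. At month 9 it was -0.19 to 0.078 for Hal, -0.24 to 0.042 for Arg1, -0.12 to 0.078 for Asl and -0.029 to 0.018 for Hsd17b13. At month 12 it was -0.47 to 0.11 for Cyp2f2, -0.34 to 0.34 for Sds, -0.091 to 0.18 for Gls2, -0.026 to 0.089 for Arg1, -0.13 to 0.19 for Cps1, -0.14 to 0.17 for Otc and -0.064 to 0.21 for Hsd17b13. In the mean it was -0.048 to 0.085 for Cyp2f2 and -0.0036 to 0.089 for Hal. The simulated fit for month 1 missed 50% of 2-fold changes, set in genes with a mean of at least 1 CPM. The members had at least 675 counts in every library, so that rate need not hold for them. Their standard errors at month 1 ran from 0.16 (Gls2) to 0.31 (Sds) on the log2 scale. With 3 samples a group, small differences may go undetected.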
